A study of Mus musculus with 6 samples.

Results

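The CHD, SMARC and ARID genes are 3 overlapping gene families of chromatin remodeling. They were chosen by symbol alone (Chd with a digit and an optional l, every Smarc symbol, and Arid with a digit and a letter), which gave 33 of the 24411 gene symbols in the deposited count files. The rule used no measured value, though it was set with earlier results of these data known. It left out Arid2, whose symbol has no letter after the digit. Of the 33 genes, 32 had enough reads to be among the 15303 genes tested. By the protein they encode they fell into 16 genes for ATPases of the SNF2 type (the 10 CHD genes, Smarca1, Smarca2, Smarca4, Smarca5, Smarcad1 and Smarcal1), 7 genes for SMARC subunits without an ATPase, 9 ARID genes and the pseudogene Smarca5-ps.

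RNA was sequenced from cochlear sensory epithelium of mice at postnatal day 9 (P9), in 3 pools of Kir2.1-OE and 3 pools of control animals on a C57BL/6N background, each pool holding 8 cochleae from 4 mice. The Kir2.1-OE genotype, Otof rtTA+/-; Kir2.1+/-, carried the tetracycline transactivator rtTA under the Otof promoter, which is active mainly in inner hair cells (IHCs), and the inducible transgene tetO-Kir2.1-IRES-tau-lacZ for the inward rectifier K+ channel Kir2.1. Control littermates (Otof rtTA+/-; Kir2.1+/+) had the transactivator without the transgene. Both groups were exposed to doxycycline (DOX), which the females received at 0.5 mg/ml in drinking water during pregnancy and breast-feeding. The comparison asks how expression in the tissue changes when IHC activity is altered by the channel, and the replicate is a pool, so the tests measure the spread between pools.

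Chromatin remodelers use the energy of ATP to slide, evict or exchange nucleosomes. The ATPase is a large motor protein, and in most complexes it works with smaller subunits that give the complex its shape, its targets and its stability: BRG1 or BRM (Smarca4, Smarca2) in the BAF complexes, CHD3, CHD4 or CHD5 in NuRD, and SNF2H or SNF2L (Smarca5, Smarca1) in the ISWI complexes. ARID proteins share an AT-rich DNA interaction domain, and ARID1A and ARID1B are the large subunits that define the canonical BAF complex. In the ear the best known member is CHD7, which is mutated in CHARGE syndrome, a disorder with malformed inner ears and hearing loss, and Brg1 and Chd4 have been studied in hair cell and inner ear development.

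Values are normalized counts, which are the reads assigned to a gene scaled by TMM library size factors. They are not divided by transcript length, so levels of different genes are compared only per kb. Ratios between genes use these undivided counts. They are compared between the groups and do not tell which gene is at the higher level. A gene was called higher or lower where edgeR's quasi-likelihood test, adjusted over all 15303 genes, gave an adjusted p under 0.05 and the fold change was above 1.5. Between 35430940 and 41205047 reads were assigned per library. Kcnj2, which encodes Kir2.1, was at 3612, 3813 and 2213 in Kir2.1-OE pools 1 to 3 and between 226 and 236 in the controls, and no library went against its label (p = 0.1 in a two-sided exact permutation test, which cannot go lower with 3 pools against 3).

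Of the 32 genes tested, 20 were higher in Kir2.1-OE pools, where 15.5% of all genes tested were called higher. None of the 32 was lower, where 5.08% of all genes were, with the same count of 0 by DESeq2 and limma-voom and 2 members lower at an unadjusted p under 0.05 in edgeR. The 20 were 11 of 16 SNF2 ATPases (Chd1 to Chd9, Smarca2 and Smarca4), all 8 tested ARID genes (Arid1a, Arid1b, Arid3a, Arid3b, Arid4a, Arid4b, Arid5a and Arid5b) and 1 of 7 SMARC subunits without an ATPase, Smarcc2. The median log2 fold change was 1.04 over the SNF2 ATPases, 0.93 over the ARID genes and 0.07 over the SMARC subunits, beside 0.01 over all genes tested. The lowest Kir2.1-OE pool was above the highest control pool in 24 of the 32 genes, against 31.7% of all genes, and the highest Kir2.1-OE pool was below the lowest control pool in Smarcad1 and Smarcd2, against 29.9% of all genes. With glmTreat, edgeR's test against a minimum change, set at 0.6 on the log2 scale, 15 of the 32 genes stayed higher, where 5.44% of all genes were.

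**Figure D1:**
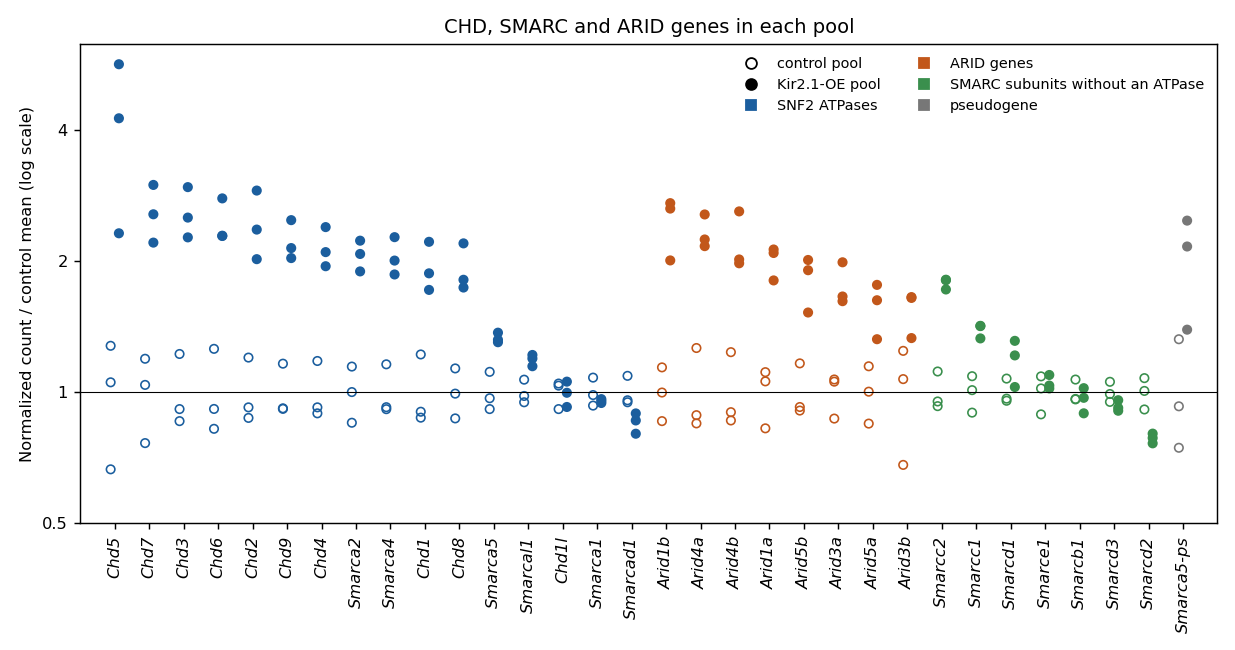
Normalized count of each tested CHD, SMARC and ARID gene in every pool divided by its control mean (log scale), with control pools as open and Kir2.1-OE pools as filled circles and colours for the 3 classes and the pseudogene. The Kir2.1-OE pools lie above all control pools in 24 of the 32 genes, and the 7 SMARC subunits lie closer to 1 than most SNF2 ATPases and ARID genes.

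The pools also differed in tissue markers, whose values are given here beside those that follow. Of 10 spiral ganglion neuron markers 5 were higher and none lower, and their summed normalized count ranged from 23901 to 56450 in Kir2.1-OE pools and from 12579 to 19622 in controls. Of 8 glia markers 3 were higher (370721 to 488834 against 268854 to 340021), and of 10 cartilage, bone and fibrocyte markers 4 were higher (1200453 to 1436025 against 661613 to 960273). Hair cell markers gave 4 higher and 1 lower of 10 (49767 to 54060 against 42991 to 48036), and supporting cell markers 2 higher and 1 lower of 10 (218314 to 241169 against 248608 to 259362). Erythrocyte and macrophage markers gave 3 lower and none higher of 10 (16772 to 19617 against 23294 to 49783). The 3 lower were the erythroid genes Hba-a1, Hbb-bt and Alas2, and Hba-a1 and Hba-a2 had the highest counts of the list. No macrophage gene was called, with log2 fold changes of 0.47 for Csf1r, 0.25 for Cd68, 0.24 for Cx3cr1, -0.16 for Adgre1 and -0.21 for C1qa. Proliferation markers gave 3 higher of 10 with summed counts of 3716 to 4276 against 4081 to 4111. The summed counts of all Kir2.1-OE pools lay above those of all control pools for the neuron, glia, cartilage and hair cell lists, and below them for the supporting cell and the erythrocyte and macrophage lists. No marker was at 0 in all libraries. Within each list the change also went with transcript length, with Spearman's rho from 0.381 (glia) to 0.855 (supporting cells). With length and GC offsets from the longest transcript, described below, list medians changed. They went from 0.89 to 0.95 for neuron, 0.48 to 0.56 for glia and 0.61 to 0.29 for cartilage markers. Hair cell and supporting cell medians went from 0.07 to 0.08 and from 0.06 to -0.08. Myo7a, Otof and Otog went to 0.31, -0.10 and -0.21. In such bulk samples a change in the number of cells of a type and a change in RNA per cell cannot be told apart, and the part of these markers in the results was not tested.

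Chd7, a gene of 38 exons in its main coding transcript at chr4:8690406-8867659 on the plus strand (mm10), encodes a CHD remodeler of 2986 residues that binds enhancers. It was at 1531, 1311 and 1129 in Kir2.1-OE pools 1, 2 and 3 and at 532, 611 and 391 in control pools 1, 2 and 3. Every Kir2.1-OE pool was well above every control pool, and the lowest of them was still clear of the highest control. The mean rose from 511 ± 111 to 1324 ± 202 (SD, n = 3), a fold change of 2.59 and a log2 fold change of 1.37 with a standard error (SE) of 0.16 (95% interval 1.00 to 1.74, adjusted p = 0.000262). Per kb of coding transcript Chd7 had 130 normalized counts in Kir2.1-OE and 50.03 in control pools, the lowest of the 10 CHD genes in Kir2.1-OE pools after Chd5 at 26.3, while Chd4 was the highest at 1968.

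The other members of the CHD6 to CHD9 branch, long proteins related to CHD7, rose as well. Chd6 rose with a log2 fold change of 1.29, Chd9 with 1.15 and Chd8, a gene known for its mutations in autism, with 0.94. Their adjusted p-values lay between 0.000163 and 0.000302, and none of the 3 had overlapping groups.

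CHD3, CHD4 and CHD5 are the alternative motors of NuRD, which joins nucleosome remodeling to histone deacetylation. Chd5, which is expressed largely in neurons, was at 261, 142 and 347 in Kir2.1-OE pools 1 to 3 and at 78.3, 64.5 and 40.7 in control pools 1 to 3. The groups did not overlap, yet the Kir2.1-OE pools differed among themselves more than for any other CHD gene in relative terms. Its log2 fold change of 2.03 (SE 0.34, adjusted p = 0.00125) was the highest of the 32 genes. The neurofilament gene Nefm, a marker of spiral ganglion neurons, was at 10021, 5643 and 14761 in the same Kir2.1-OE pools and at 2401, 3771 and 1743 in the control pools. Chd5 and Nefm ranked the 3 Kir2.1-OE pools alike, with pool 3 highest and pool 2 lowest, and ranked the control pools differently except for pool 3, which was lowest in both. Of the 10 neuron markers 5 were higher, whereas Syt1 and Gap43 had log2 fold changes of -0.13 and -0.12 and were not called. Nefh, Nefl, Rbfox3, Snap25, Stmn2, Tubb3 and Prph also had Kir2.1-OE pool 3 highest and pool 2 lowest. Syt1 and Gap43 had pool 3 highest but pool 1 lowest. Orders of 3 pools can match easily, and the part of neurons in the Chd5 change was not tested.

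Chd3 was at 7812, 6649 and 5989 in Kir2.1-OE pools and at 2415, 3232 and 2266 in control pools, and its groups lay far apart. It rose with a log2 fold change of 1.37 (SE 0.14, adjusted p = 0.000174). Chd4, the NuRD ATPase with the highest level per kb of the 16 SNF2 genes, was at 14350, 12572 and 11668 in Kir2.1-OE pools and at 5359, 7068 and 5531 in control pools. Again all Kir2.1-OE pools were above all controls, and the log2 fold change was 1.10 (SE 0.12, adjusted p = 0.000195). Chd1, whose chromodomains bind methylated histone H3, and its relative Chd2 rose with log2 fold changes of 0.95 and 1.28. Chd1l, a remodeler recruited by poly(ADP-ribose) at DNA damage and the shortest of the CHD genes at 3008 nt of coding transcript, was at 651, 614 and 569 in Kir2.1-OE pools and at 563, 644 and 637 in control pools. Its groups overlapped fully, with a log2 fold change of -0.01 (95% interval -0.23 to 0.21, adjusted p = 0.949).

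Smarca4 and Smarca2 encode BRG1 and BRM, the alternative motors of the BAF complexes. Smarca4 was at 7919, 6996 and 6501 in Kir2.1-OE pools and at 3222, 4042 and 3188 in control pools. The groups were well separated, with a log2 fold change of 1.03 (SE 0.11, adjusted p = 0.000186). Smarca2 rose by almost the same log2 fold change, 1.05, and the ratio of Smarca2 to Smarca4 counts was 0.769 ± 0.021 in Kir2.1-OE and 0.761 ± 0.067 in control pools (SD, n = 3), with overlapping values. This ratio and the others below are from 9 that were computed. They were picked after the gene values had been seen and carry no test.

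The remaining SMARC ATPases were not called. Smarca5 (SNF2H), the main ISWI motor, had a log2 fold change of 0.41, with an adjusted p of 0.00289 but a fold change of 1.33, below the threshold. Its relative Smarca1 (SNF2L) was at 1765, 1748 and 1730 in Kir2.1-OE pools and at 1804, 1978 and 1706 in control pools, which overlapped, with a log2 fold change of -0.07 (95% interval -0.23 to 0.10, adjusted p = 0.486). Smarca1 lay within a narrow range in the Kir2.1-OE pools, whereas Smarca5 was higher in every Kir2.1-OE pool, and the Smarca1 to Smarca5 ratio was 0.398 ± 0.007 against 0.557 ± 0.036. Smarcal1, which anneals DNA at stalled replication forks, had a log2 fold change of 0.25 (adjusted p = 0.0211, fold change 1.19).

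Smarcad1, which acts in DNA end resection and in keeping heterochromatin through replication, had the opposite sign. It was at 1474, 1374 and 1530 in Kir2.1-OE pools and at 1866, 1623 and 1640 in control pools. The groups did not overlap but came close to each other, and the log2 fold change was -0.23 (SE 0.08, adjusted p = 0.0418, fold change 0.854). Adjusted p-values under 0.05 at any fold change were found for 23 members higher, where 27.3% of all genes were, and for 2 members lower, Smarcad1 and Smarcd2, where 23.5% of all genes were.

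The pseudogene Smarca5-ps is a near copy of Smarca5, so reads may have been divided between them by the estimation. It had between 14.99 and 26.7 normalized counts in Kir2.1-OE pools and between 8.03 and 14.2 in control pools and was not called (log2 fold change 1.00, adjusted p = 0.0584).

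Of the 7 SMARC subunits without an ATPase, 6 were not called. Smarcc1 and Smarcc2 encode BAF155 and BAF170, the paired scaffold subunits of BAF. Smarcc2 was at 4927, 4915 and 4679 in Kir2.1-OE pools and at 2588, 3032 and 2524 in control pools. Its Kir2.1-OE pools were tightly grouped and above all controls, and it was the only SMARC subunit of this class called, with a log2 fold change of 0.83 (SE 0.08, adjusted p = 0.000158). Smarcc1 was at 4279, 4567 and 4573 in Kir2.1-OE pools and at 3255, 3504 and 2890 in control pools. Its groups also did not overlap, but the log2 fold change of 0.48 (adjusted p = 0.00142) was under the threshold, and the Smarcc1 to Smarcc2 ratio was 0.925 ± 0.055 against 1.19 ± 0.062.

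Smarcb1 (BAF47) and Smarce1 (BAF57) are core subunits and had the highest levels per kb of this class. Smarcb1 was at 2804, 2951 and 2583 in Kir2.1-OE pools and at 2787, 3088 and 2781 in control pools. Its groups overlapped throughout, with a log2 fold change of -0.05 (95% interval -0.23 to 0.12, adjusted p = 0.586). Smarce1 was at 4867, 4533 and 4602 in Kir2.1-OE pools and at 3952, 4831 and 4533 in control pools. These overlapped too, and the log2 fold change was 0.07 (95% interval -0.12 to 0.26, adjusted p = 0.503), a sign that turned with upper quartile scaling. Smarca4 counts over Smarcb1 counts, a motor against a core subunit of the same complex, were 2.57 ± 0.23 in Kir2.1-OE and 1.20 ± 0.091 in control pools. Their coding transcripts have 6376 and 1660 nt. Per kb Smarca4 was at 1120 in Kir2.1-OE and 546 in control pools, below Smarcb1 at 1674 and 1738.

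Smarcd1, Smarcd2 and Smarcd3 encode the alternative BAF60 subunits, which link the complex to transcription factors. Smarcd1 was at 1949, 1527 and 1805 in Kir2.1-OE pools and at 1436, 1597 and 1420 in control pools. Kir2.1-OE pool 2 lay within the control range, and the log2 fold change was 0.25 (adjusted p = 0.063). Smarcd2 was at 2878, 2961 and 3030 in Kir2.1-OE pools and at 3797, 3443 and 4063 in control pools. All Kir2.1-OE pools were below all controls, with a log2 fold change of -0.35 (SE 0.08, adjusted p = 0.00442) at a fold change of 0.785, short of the threshold. Smarcd3 was at 956, 970 and 1010 in Kir2.1-OE pools and at 1001, 1044 and 1114 in control pools. Its groups overlapped at their edge, with a log2 fold change of -0.11 (adjusted p = 0.279), and 2466 nt of its exons lie opposite exons of Chpf2, so its reads cannot be told from those of Chpf2 unless strand was used in counting, which the sources used here do not give. The ratio of Smarcd1 to Smarcd2 counts was 0.596 ± 0.081 in Kir2.1-OE and 0.397 ± 0.059 in control pools.

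Each of the 8 ARID genes tested rose. Arid1a and Arid1b encode the alternative large subunits of canonical BAF and had the highest levels per kb of the ARID genes. Arid1a was at 6235, 6352 and 5393 in Kir2.1-OE pools and at 3320, 3162 and 2466 in control pools. Arid1b was at 3775, 3668 and 2789 in Kir2.1-OE pools and at 1386, 1584 and 1192 in control pools. In both genes all Kir2.1-OE pools were above all controls. The log2 fold changes were 1.01 for Arid1a (SE 0.12, adjusted p = 0.000229) and 1.30 for Arid1b (SE 0.13, adjusted p = 0.000169), and the Arid1b to Arid1a ratio was 0.567 ± 0.045 against 0.467 ± 0.044.

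Arid4a and Arid4b encode subunits of the SIN3 histone deacetylase complex. Arid4a was at 1127, 987 and 953 in Kir2.1-OE pools and at 373, 556 and 390 in control pools, and its log2 fold change was 1.22 (SE 0.15, adjusted p = 0.000304). Arid4b was at 1825, 1387 and 1415 in Kir2.1-OE pools and at 604, 867 and 631 in control pools, and its log2 fold change was 1.14 (SE 0.15, adjusted p = 0.000448). Neither gene had overlapping groups. Exons of Arid4b share 257 nt with the antisense gene Ggps1, those of Smarcc1 123 nt with the antisense gene Dhx30, and those of Chd2 2628 nt with 1810026B05Rik on the same strand, so their reads may be divided with these genes. Arid5b, whose protein works with the demethylase PHF2, had a log2 fold change of 0.86 (adjusted p = 0.00084).

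The lowest ARID changes were those of Arid3a, Arid5a and Arid3b. Arid3a, which encodes a sequence-specific DNA-binding protein first known from B cells, was at 244, 204 and 199 in Kir2.1-OE pools and at 131, 130 and 107 in control pools, with a log2 fold change of 0.81 (adjusted p = 0.00292). Arid5a, known for binding and stabilising mRNAs of inflammation, was at 1101, 1015 and 826 in Kir2.1-OE pools and at 529, 716 and 626 in control pools, with a log2 fold change of 0.65 (adjusted p = 0.00363). Arid3b was at 272, 271 and 219 in Kir2.1-OE pools and at 205, 176 and 112 in control pools, with a log2 fold change of 0.63 (adjusted p = 0.0354). The groups of all 3 genes were apart, those of Arid3b by the least. Arid5a was no longer called without Kir2.1-OE replicate 1 or without control replicate 1, and Arid3b was no longer called without Kir2.1-OE replicate 1 or 2 or without control replicate 2 or 3. Arid3c, a relative of Arid3a, had 0, 2 and 1 reads in Kir2.1-OE and 6, 1 and 0 reads in control libraries and was not tested, and a count of 0 allows a share of up to 8.47e-06% of the reads of the smallest library, counting error only.

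The pools kept much the same order across members. Of the 20 called genes, Kir2.1-OE pool 1 was highest in its group in 17 and pool 3 lowest in 17, while control pool 2 was highest in 15 and control pool 3 lowest in 13. Class medians were also taken pool by pool. Relative to the control mean, the median log2 ratio of the SNF2 ATPases was 1.18, 1.04 and 0.92 in Kir2.1-OE pools 1 to 3 and -0.11, 0.22 and -0.11 in control pools 1 to 3. For the SMARC subunits it was 0.14, 0.04 and 0.06 in Kir2.1-OE and -0.05, 0.11 and -0.05 in control pools. The SNF2 medians of the groups were far apart and those of the SMARC subunits overlapped.

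Large motors and small subunits also differ in transcript length, and the change followed length across the whole table. The coding transcript, taken here as the annotated transcript with the longest coding sequence (GENCODE vM21), had a median of 6899 nt over the SNF2 ATPases, 5612.5 nt over the tested ARID genes, 2919 nt over the SMARC subunits and 2978 nt over all genes tested. Encoded proteins had a median of 1769 residues for the SNF2 ATPases, 1224.5 for the ARID genes and 515 for the SMARC subunits. Spearman's rho between length and log2 fold change was 0.784 across the 32 members and 0.572 across 15192 genes with a length, as a description across genes that share the same 6 libraries. The deviation of a pool from its own group mean also went with length across all genes, with rho of 0.305, -0.123 and -0.189 in Kir2.1-OE pools 1 to 3 and -0.0539, 0.209 and -0.157 in control pools 1 to 3. The pools with a positive rho, Kir2.1-OE 1 and control 2, were those in which most called members were highest.

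Beside other genes of their length the members were read as follows. With transcripts of at least 8000 nt, all 7 members (Arid1a, Chd2, Chd5, Chd6, Chd7, Chd8 and Chd9) were higher, as were 64.2% of all genes of this length. From 6000 to 8000 nt, 6 of 7 members were higher and Smarca5 was not, beside 49.8% of all genes. From 5000 to 6000 nt, 3 of 5 were higher, and Smarcad1 and Smarcc1 were not, beside 29% of all genes. These shares rest on few members in each range, and the genes that stayed uncalled are an ISWI motor, a DNA repair remodeler and a BAF scaffold subunit. Lower down the shares were 3 of 3 members beside 20.7% from 4000 to 5000 nt, 1 of 6 beside 11.4% from 3000 to 4000 nt, 0 of 2 beside 6.08% from 2000 to 3000 nt and 0 of 2 beside 2.82% under 2000 nt. The log2 fold change of 18 of the 32 members was above the upper quartile of all genes in its length range, 12 were inside the quartiles, and Smarcad1 and Smarcd2 were below the lower quartile. Chd7 was 0.55 above the median of its range, Chd5 1.21 above and Arid4a 0.99 above, whereas Chd8 was 0.12 and Arid1a 0.19 above. The length ranges were set after values had been seen and are given as a description.

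**Figure D2:**
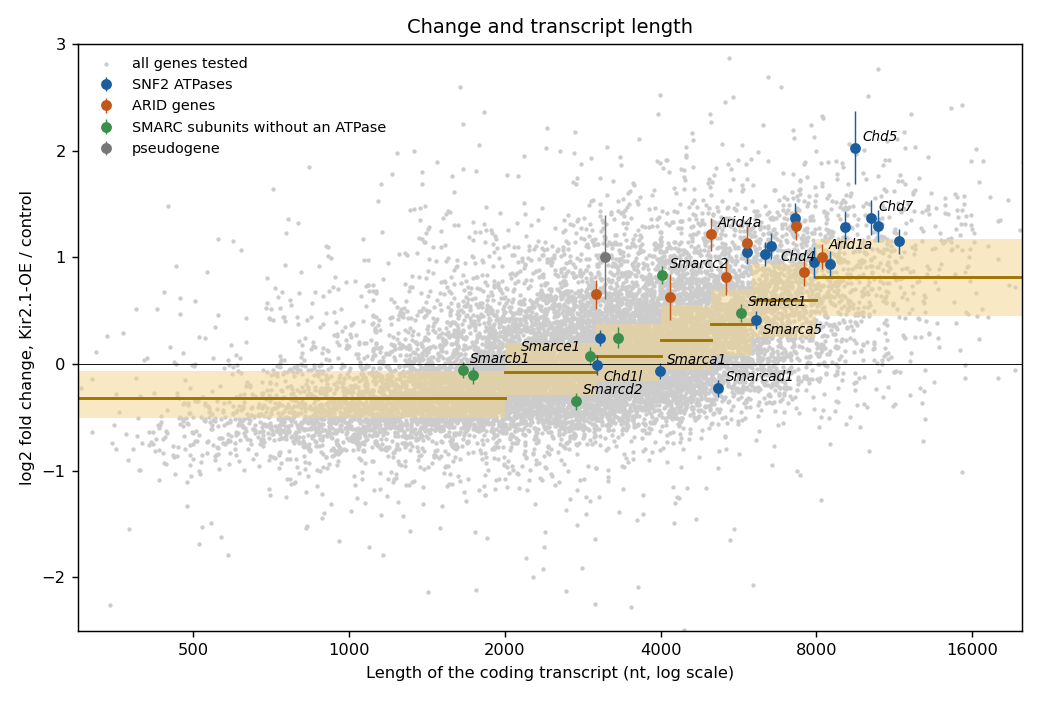
Log2 fold change of Kir2.1-OE over control pools (vertical) against length of the coding transcript in nt (horizontal, log scale) for all genes tested (grey) and for CHD, SMARC and ARID genes (coloured, bars are standard errors), with the median (line) and quartiles (band) of all genes in each length range and genes beyond the axes not drawn. The medians climb from -0.32 under 2000 nt to 0.82 at 8000 nt or more, Chd5 at 2.03 stands above its range, and Smarcad1 at -0.23 stands below it.

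The comparison was repeated with offsets that take out, library by library, the smooth trend of the log2 ratios on transcript length and GC content. With lengths from the longest annotated transcript, 7 members were higher (Arid4a, Arid4b, Chd2, Chd5, Chd6, Chd9 and Smarca5-ps), where 6.44% of all genes were, and Smarcb1 was lower, where 3.41% of all genes were. With lengths from the coding transcript, chosen after seeing the annotation, 4 members were higher (Arid4a, Arid4b, Chd5 and Smarca5-ps), where 6.16% of all genes were. Class medians fell to 0.48 and 0.42 for the SNF2 ATPases under these 2 offsets and to 0.31 under both for the ARID genes, and were 0.01 under both for the SMARC subunits. The order of the class medians was kept, with SNF2 ATPases and ARID genes above SMARC subunits, at a smaller distance.

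For Chd7 the log2 fold change was 0.58 (adjusted p = 0.00836) with the longest transcript and 0.42 (adjusted p = 0.0214) with the coding transcript, a fold change below 1.5 in both. Chd7 was still called with lengths from the median annotated transcript (1.09, adjusted p = 0.000522) and, at the edge of the fold threshold, with the longest transcript and a replicate block together (0.586, adjusted p = 0.0133). Chd7 was not called with the longest transcript and a linear loess as the trend. Chd5 was called under each offset alone, but not with the block added (0.99, adjusted p = 0.0705). Under the offsets from the longest and the coding transcript Arid4a was at 1.08 and 1.04 and Arid4b at 0.98 and 0.97, while Arid1a went to 0.11 and 0.05. Smarca4 was at 0.31 with the longest transcript and 0.28 with the coding transcript. Smarcb1 was -0.69 with the longest transcript and 0.09 with the coding transcript. Its longest annotated transcript has 7441 nt and its coding transcript 1660 nt, so the 2 offsets place it at opposite ends of the trend. The offsets remove any change that goes with length, of whatever origin, and the origin was not tested.

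**Figure D3:**
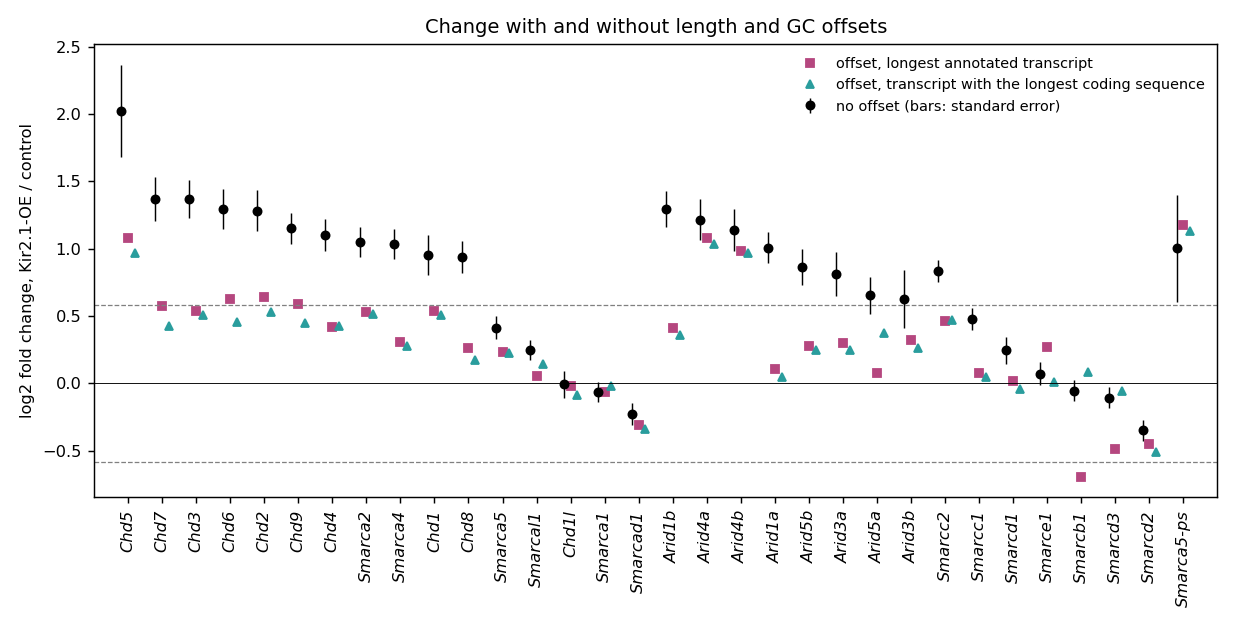
Log2 fold change of Kir2.1-OE over control pools for each tested CHD, SMARC and ARID gene without offsets (black circles, bars are standard errors), with length and GC offsets from the longest annotated transcript (squares) and from the transcript with the longest coding sequence (triangles), and dashed lines at a fold change of 1.5 in either direction. Chd5, Arid4a and Arid4b stay above the upper line under both offsets plotted, Chd7 drops to 0.58 and 0.42, and Smarcb1 drops to -0.69 under the first alone.

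The partners of these proteins were read from lists of complex subunits that do not match the symbol rule, beside the 15.5% of all genes tested that were higher and the 5.08% that were lower. Their counts here are without offsets, and the counts with offsets follow after the lists. Of 20 further BAF and PBAF subunits 6 were higher (Arid2, Pbrm1, Dpf3, Bcl11b, and Bicra and Bicral, listed as Gltscr1 and Gltscr1l) and Actl6a was lower, with a median log2 fold change of 0.44. Arid2 and Pbrm1 are the large subunits that define PBAF. Gltscr1 was at 767, 730 and 647 in Kir2.1-OE pools and at 344, 308 and 280 in control pools, with a log2 fold change of 1.20 (adjusted p = 0.000148), and Gltscr1l had 1.07. The lowest of the list were Actl6a, which encodes the actin-related subunit BAF53a of progenitor cells, at -0.59 (adjusted p = 0.000765), and Bcl7c at -0.45, which did not pass the fold threshold.

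Among 12 other NuRD subunits only Gatad2b was called, with a log2 fold change of 1.00 (adjusted p = 0.000193), and the median was -0.10. Gatad2a had 0.55, and the histone chaperones Rbbp7 and Rbbp4 had -0.42 and -0.50, none of them past the fold threshold. The deacetylases Hdac1 and Hdac2 and the MTA and MBD subunits were not called, being under the fold threshold. Hdac1 at -0.39 (adjusted p = 0.0019), Hdac2 at -0.27 (adjusted p = 0.0201) and Mta2 at -0.20 (adjusted p = 0.0263) were below all controls in every Kir2.1-OE pool. Mta1 at 0.28 (adjusted p = 0.0118) was above them, and Mta3, Mbd2 and Mbd3 had overlapping groups. All 3 NuRD motors, Chd3, Chd4 and Chd5, rose.

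For ISWI, partners were called while the motors Smarca5 and Smarca1 were not, although Smarca5 at 0.41 was higher in every Kir2.1-OE pool. Within the partner list the change went with transcript length (Spearman's rho 0.721). Of 10 ISWI partners 7 were higher (Baz1a, Baz1b, Baz2a, Baz2b, Bptf, Cecr2 and Rsf1), all of which encode large regulatory subunits, with a list median of 0.98. Bptf, the largest NURF subunit, was at 3432, 2671 and 2398 in Kir2.1-OE pools and at 1030, 1063 and 913 in control pools, with a log2 fold change of 1.499 (adjusted p = 0.000129), and Baz2b had 1.35. The small histone-fold subunits were Pole4, lower at -0.75 (adjusted p = 0.000317), and Chrac1 at -0.33, under the fold threshold.

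Of 29 INO80, SRCAP and TIP60 subunits 6 were higher, namely Ino80, Srcap and Ep400, which encode the motors, and Ino80d, Nfrkb and Trrap. None was lower, and the median was -0.04. Srcap was at 3715, 3432 and 2802 in Kir2.1-OE pools and at 1329, 1164 and 852 in control pools, with a log2 fold change of 1.57 (adjusted p = 0.000163), and Ep400 had 1.16. Yeats4 and Actr6 were the lowest at -0.48 and -0.53, under the fold threshold. Of 12 other SNF2-family ATPases tested 3 were higher, Atrx at 1.24, Ercc6 at 1.00 and Rad54l2, with a median of 0.40, and the lowest were Hltf at -0.06 and Ercc6l at -0.08.

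Over all partner genes tested, 21 of 27 with a coding transcript of at least 5000 nt were higher, as were 2 of 17 between 3000 and 5000 nt and 0 of 39 under 3000 nt, of which 2 were lower. Among all genes of these lengths 45.7%, 15.2% and 4.3% were higher, and 9.02% of those under 3000 nt were lower. The 6 long partners not called were Bcl11a, Mbtd1, Hells, Shprh, Ercc6l and Btaf1. These length limits too were chosen with the values in view. With offsets from the longest annotated transcript, 10 of the 83 partner genes were higher, where 6.44% of all genes were. Of these 9 (Dpf3, Baz1a, Baz2b, Bptf, Cecr2, Rsf1, Ino80, Srcap and Atrx) were among the 23 higher without offsets. Bcl7c and Rbbp4 were lower, where 3.41% of all genes were. Bcl7c was at -1.02 with its longest transcript of 6235 nt and at -0.27 with its coding transcript of 891 nt. Rbbp4 was at -0.62 and -0.60. With the coding transcript 5 of the 83 were higher (Actb, Baz1a, Baz2b, Cecr2 and Atrx), near the share of 6.16% of all genes. Under the longest transcript the list medians were 0.44 for the ISWI partners, 0.22 for BAF and PBAF, 0.09 for the other SNF2 ATPases, 0.03 for INO80, SRCAP and TIP60 and -0.04 for NuRD. Gltscr1 went to 0.37, Ep400 to 0.31 and Gatad2b to 0.47, and none of these 3 was called.

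**Figure D4:**
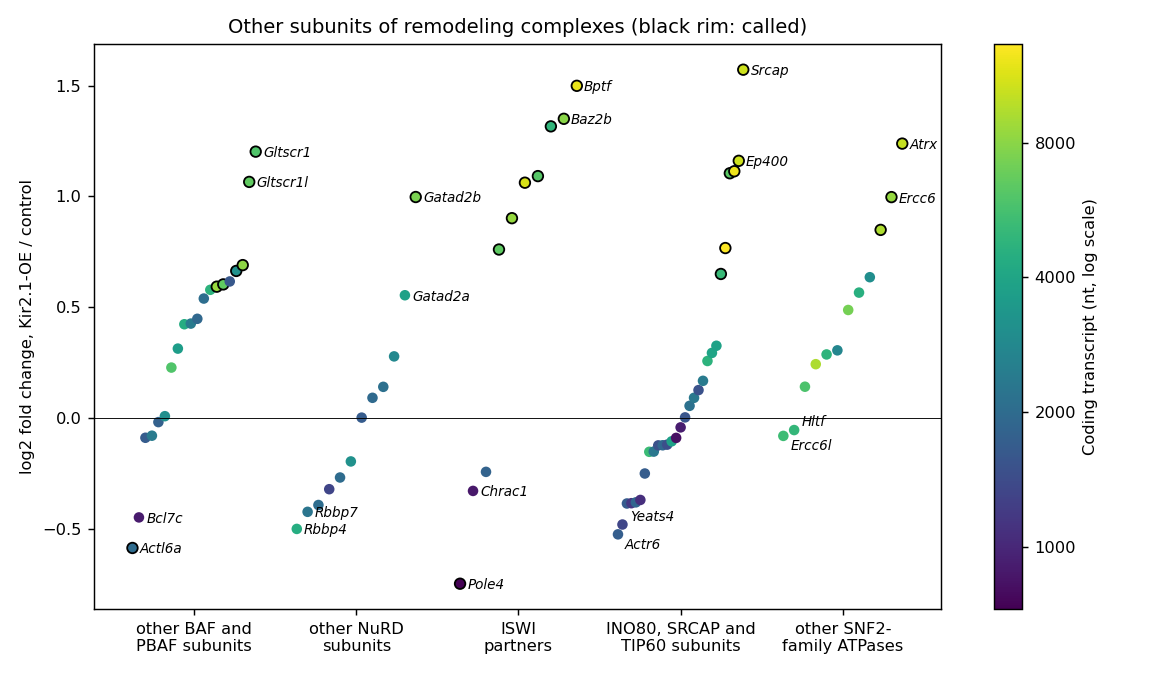
Log2 fold change of Kir2.1-OE over control pools (vertical) for subunits of remodeling complexes outside the CHD, SMARC and ARID symbols, in 5 lists along the horizontal axis and ordered by value within each, coloured by length of the coding transcript (log scale) with a black rim for genes called. The called genes at the top of each list are mostly long, and the lowest genes, Actl6a at -0.59 and Pole4 at -0.75, are short.

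Promoters were looked at as a property that the symbol rule did not use. RefSeq windows (GRCm38.p6, 250 bases before to 50 bases after a start site) were matched for 25 of the 33 genes, with 16 of them having a window within 50 nt of the GENCODE gene start. The median number of CpG dinucleotides per window was 25 over the windows of the 25 genes and 7.0 over all windows, and 19 of 25 genes (76.0%) had a window with at least 20, against 28.8% of all 27025 genes, whether or not expressed here. Among tested members the median was 27.5 over 14 called genes (range 7 to 48) and 26.0 over 10 genes not called (range 4 to 40), so the ranges overlapped. The 100 bases before the start are shown for 3 genes that rose and for Smarcb1, which did not, to let their CpG content (capitals) be seen beside each other. They were chosen with the values in view, among windows near the gene start. The stretches are chr4:152338551-152338650 (plus strand) for Chd5, chr9:21616069-21616168 (plus) for Smarca4, chr1:36307633-36307732 (plus) for Arid5a and chr10:75921615-75921714 (minus) for Smarcb1.
Chd5: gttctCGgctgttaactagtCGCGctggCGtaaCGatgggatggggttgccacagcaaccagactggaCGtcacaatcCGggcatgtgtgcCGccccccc
Smarca4: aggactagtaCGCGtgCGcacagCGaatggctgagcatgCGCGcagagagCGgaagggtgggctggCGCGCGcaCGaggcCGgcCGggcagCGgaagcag
Arid5a: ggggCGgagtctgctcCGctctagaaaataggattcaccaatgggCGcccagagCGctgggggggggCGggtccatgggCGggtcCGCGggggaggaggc
Smarcb1: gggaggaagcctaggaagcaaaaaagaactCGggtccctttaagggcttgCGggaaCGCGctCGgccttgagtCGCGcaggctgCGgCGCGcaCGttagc
These stretches hold 8, 14, 8 and 11 CpG in the order shown, so Smarcb1 has more than Chd5 and Arid5a, and their whole windows hold 32, 33, 22 and 27. Short motifs were searched on both strands of the 300-base windows, and none of the motif sequences contains another. The NFY box CCAAT was in 9 of 25 genes (36.0%, against 41.1% of all genes) and the SP motif GGGGCGGGG in 4 (16.0%, against 12.9%). The TATA box TATAAA was in Arid5b and Smarcd2 (8.0%, against 15.7%), the E2F motif TTTCCCGC in Arid1a and Smarcd1 (8.0%, against 1.24%) and the YY1 motif AAGATGGCG in Smarcd1 (4.0%, against 1.64%). No member window held the ETS motif CCGGAAGT (4.31% of all genes), the cAMP response element TGACGTCA (2.03%) or the SOX motif AACAATGG (1.22%).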

How the data were processed

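Cochlear sensory epithelium was measured by poly(A) RNA-seq in 3 Kir2.1-OE and 3 control pools, grouped by the genotype in the study's labels. The authors mapped the reads to mm10 with the nf-core RNA pipeline and deposited the expected counts that Salmon estimated for each of 24411 gene symbols, without division by length or depth. Versions, gene annotation and strand setting are not given in the sources used here.

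After rounding, the expected counts entered edgeR 4.0.16 (R 4.3.3, with TMM, filterByExpr, quasi-likelihood test, Benjamini-Hochberg adjustment over all genes tested). The model was tested on simulated data first. Between 35430940 and 41205047 reads were assigned per library, and library factors lay between 0.984 and 1.01. Transcript lengths came from GENCODE vM21, matched by symbol for 23376 symbols and by an older symbol for 656. Length and GC offsets were fitted values of a loess (span 0.4, degree 2) of the log2 ratios of a library to the average of all libraries. A linear loess (degree 1) was tried first, and the change to degree 2 was made with both counts of calls seen.

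Alternatives were other scalings and filters, unrounded counts, a replicate block, offsets, DESeq2 1.42.0, limma-voom (limma 3.58.1), no fold threshold, glmTreat and leaving out each library. Every member was named, with values in each library for Chd7 and, per class, for the 3 highest and 3 lowest log2 fold changes and the 2 highest levels per kb. Of each partner list the 2 highest and 2 lowest were named, beside the genes called. The members and lists were chosen with earlier results of these data known. Nefm was chosen as the marker of its list with the highest mean count.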

Additional observations from a re-analysis of the deposited data

How the results depend on the processing

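Of the 20 members called higher, all were called under DESeq2 size factors, library size alone, no filter, at least 10 counts in every library, unrounded counts, limma-voom and the DESeq2 Wald test. Upper quartile scaling left 18, without Arid5a and Arid3b, lowered the share of higher among all calls from 75.2% to 57.9% and gave Smarce1 a log2 fold change of -0.017. Leaving out each library in turn gave 18 to 20 members higher. The class medians stayed within the spread between pools in each of these.

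Length and GC offsets lowered the number of members higher. That number was 7 with the longest annotated transcript and 13 with the median transcript, where 1698 of all 15303 genes were higher. It was 6 with the longest transcript and a replicate block (Chd5 not among them). It was 4 with the coding transcript, an alternative chosen after seeing the data. With the linear loess, which was tried first and replaced by degree 2 with both counts of calls seen, it was 5. The number lower was 1 with the longest transcript, 1 with a linear loess and 1 with the block, and 2 without a fold threshold. The SNF2 median was 0.48 with the longest transcript, 0.42 with the coding transcript, 0.42 with a linear loess and 0.48 with the block, and the ARID median 0.31, 0.31, 0.30 and 0.32, with 0.49 for the median transcript. Signs turned for Smarcd1 (-0.041 with the coding transcript, -0.0048 with a linear loess) and Smarcb1 (0.085 with the coding transcript). Without a library the sign also turned for Smarce1 (from -0.0056 without control replicate 1 to 0.138 without control replicate 2) and Chd1l (from -0.069 without control replicate 1 to 0.027 without control replicate 2, and above 0 also without Kir2.1-OE replicate 3 or control replicate 3), and neither was called in any of these. Over all genes, 2365 were higher and 778 lower, against 986 and 522 with the longest transcript and 1698 and 1042 with the median transcript. The counts were 942 and 497 with the coding transcript, 903 and 604 with a linear loess, 798 and 444 with the block added, and 832 and 57 by glmTreat. Without a fold threshold the counts were 4184 and 3590.

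Pools with the same replicate number did not deviate together (correlations of -0.106, -0.232 and -0.213), so the main model used no pairing by number. Whether littermate pools were collected in pairs cannot be told from these values. A replicate block gave 20 members higher and 0 lower, with 2220 and 718 genes in all. The depth allowed tests of 32 of the 33 genes.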
